A study of Homo sapiens with 6 samples.

Results

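DDIT4, SESN2 and PDCD4 encode 3 brakes on protein synthesis, and their RNA was followed here in MM.1S, an established human line of multiple myeloma, the cancer of antibody-secreting plasma cells. They were taken by symbol, 3 of the 14884 genes with a named probe set, and were picked because they were higher with ATRA in these same arrays. Their difference between the groups is therefore described with its error and is not tested. The RNA of all 6 samples came from bulk culture given a pulse of 1 h with Cfz, which is short for carfilzomib, a drug that blocks the proteasome. The DMSO group, 3 arrays, was then kept for 12 h in the solvent. The ATRA group, 3 arrays, was kept for 12 h in 10 µM ATRA, all-trans retinoic acid, which binds the retinoic acid receptors. The controls thus carry the Cfz pulse too, cells without Cfz were not analysed here, and 1 cell line and 1 time limit what the groups can model. Total RNA was hybridised to whole-transcript arrays, and the deposited values are linear intensities, 1 per probe set and array.

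The kinase complex mTORC1 promotes translation when nutrients and growth signals are present. It is switched on at the lysosome by the small GTPase RHEB, which the TSC1-TSC2 complex turns off. DDIT4, also called REDD1, is a stress-induced protein that acts through TSC1-TSC2 to lower mTORC1 activity, and SESN2, a sestrin, is a leucine sensor that binds the GATOR2 complex and holds mTORC1 off when leucine is short. PDCD4 works further down: it binds the helicase eIF4A and blocks initiation on capped mRNAs. S6 kinase, a target of mTORC1, marks PDCD4 for destruction by the ubiquitin ligase of beta-TrCP, so that active mTORC1 removes this brake. Myeloma cells make large amounts of immunoglobulin, which makes control of translation of interest in them. The arrays measure RNA, and neither phosphorylation nor protein amounts were analysed here.

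The promoter windows of the 3 genes are shown because the genes were higher on the same arrays and the windows can be set side by side. Each covers 250 bases before and 50 bases after the start of the gene, from RefSeq on GRCh38.p14, 5′ to 3′ on the plus strand, on which all 3 genes lie. The positions are chr10:72273674-72273973 for DDIT4, chr1:28259268-28259567 for SESN2 and chr10:110871678-110871977 for PDCD4. Capitals mark every match, on either strand, to the motifs named after the sequences.
DDIT4: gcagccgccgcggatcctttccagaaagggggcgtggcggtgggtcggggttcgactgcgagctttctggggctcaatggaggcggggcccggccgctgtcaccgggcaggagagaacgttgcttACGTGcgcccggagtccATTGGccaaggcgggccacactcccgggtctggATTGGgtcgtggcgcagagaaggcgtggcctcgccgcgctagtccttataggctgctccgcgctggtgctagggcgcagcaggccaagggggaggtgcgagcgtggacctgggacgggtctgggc
SESN2: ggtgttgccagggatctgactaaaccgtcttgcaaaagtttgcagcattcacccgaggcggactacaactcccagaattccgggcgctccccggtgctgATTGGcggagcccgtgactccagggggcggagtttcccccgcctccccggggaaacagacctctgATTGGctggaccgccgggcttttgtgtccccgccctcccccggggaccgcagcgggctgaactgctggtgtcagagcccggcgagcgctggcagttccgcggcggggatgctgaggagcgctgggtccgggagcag
PDCD4: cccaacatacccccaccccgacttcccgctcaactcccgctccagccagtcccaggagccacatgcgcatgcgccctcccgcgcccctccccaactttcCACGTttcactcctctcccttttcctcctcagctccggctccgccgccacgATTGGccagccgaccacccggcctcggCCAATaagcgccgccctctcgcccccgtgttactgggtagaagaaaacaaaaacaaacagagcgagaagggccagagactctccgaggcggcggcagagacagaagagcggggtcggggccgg

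Each window held 2 matches to the CCAAT box (CCAAT, or ATTGG on the other strand), a count of at least 2 that 10.8% of 35116 promoter windows of the same length reached. The matches began 108 and 75 bases before the start in DDIT4, 151 and 86 in SESN2, and 100 and 73 in PDCD4. The core of the hypoxia response element (ACGTG) matched 1 time in DDIT4 and 1 time in PDCD4, where it lies on the other strand, and 0 times in SESN2, and 21.4% of all windows held it. The core site of retinoic acid and other nuclear receptors (AGGTCA), present in 13.8% of windows, matched none of the 3. The same was true of the ATF4 composite element (TGATGNAA, 3.62% of windows), the E-box (CACGTG, 7.26%, a motif that overlaps ACGTG) and the FOXO element (TGTTTAC, 3.42%). GC content was 69.7% for DDIT4, 67.0% for SESN2 and 65.7% for PDCD4, against a median of 58.7% over all windows. The motifs were chosen after the sequences were seen, and a match is a run of letters, not a measured binding site. Absence says only that these letters are not in this window.

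DDIT4 intensity was 129, 148 and 161 on the DMSO arrays and 920, 1003 and 938 on the ATRA arrays. The groups did not overlap, and the lowest ATRA array was 5.73-fold above the highest DMSO array. The means were 954 ± 43.7 and 146 ± 16.0 (SD, n = 3 arrays each), a ratio of geometric means of 6.56 and a log2 difference of 2.71 (SE 0.11). Only 6 of the 14884 genes had a higher difference, and 6 had a larger one in either direction. In bulk RNA a larger share of cells that carry a transcript and more of it per cell cannot be told apart, here and for every gene below.

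PDCD4 intensity was 248, 265 and 245 with DMSO and 685, 690 and 795 with ATRA. The ATRA arrays again all lay above the DMSO arrays, with the third one the highest. The means were 723 ± 61.7 and 253 ± 10.9 (SD, n = 3), a 2.86-fold ratio and a log2 difference of 1.51 (SE 0.10). It ranked 29 among all genes from the highest difference down, and 37 genes had a larger difference in either direction. PDCD4 was thus the second of the 3 brakes by size of difference, and it acts on the initiation machinery rather than on mTORC1.

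SESN2 intensity was 104, 94.3 and 89.4 with DMSO and 149, 163 and 146 with ATRA. Its difference was the smallest of the 3, and the groups still did not overlap, the lowest ATRA array being 1.41-fold above the highest DMSO array. The means were 153 ± 8.96 and 95.9 ± 7.38 (SD, n = 3), a 1.59-fold ratio and a log2 difference of 0.67 (SE 0.10). It ranked 218 from the highest difference down, and 414 genes had a larger difference in either direction. Within the DMSO group the genes varied differently: the first DMSO array was the lowest for DDIT4 and the highest for SESN2. The spread inside a group was at most 0.32 on the log2 scale, that of DDIT4 with DMSO, and was under the difference between groups for each of the 3 genes.

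Over all genes, 9.86% had all 3 ATRA values above all 3 DMSO values, 24.7% had no overlap in either direction, and at a Benjamini-Hochberg adjusted p of 0.05 in limma's test 1.73% (257 genes) passed upward and 2.07% (308 genes) downward. Since this contrast chose DDIT4, SESN2 and PDCD4, nothing is read from their place in these shares. Each was measured by 1 probe set, whose values no other probe set repeats. All 3 genes were bright, their mean log2 levels over 6 arrays (8.54 for DDIT4, 8.74 for PDCD4, 6.92 for SESN2) lying above those of at least 79.7% of genes. The ATRA arrays, on which the genes were chosen as higher, raise these means. With DMSO alone the levels were 7.18, 7.98 and 6.58.

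**Figure D1:**
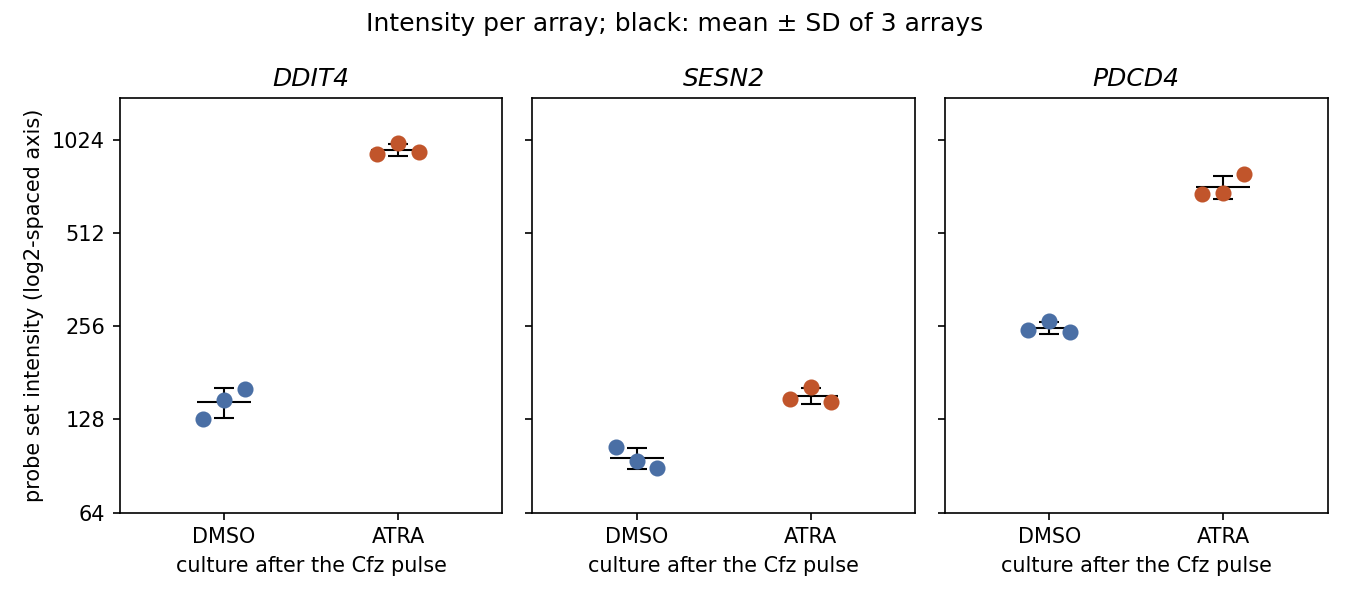
Probe set intensity of DDIT4, SESN2 and PDCD4 on each of 3 DMSO and 3 ATRA arrays, on a log2-spaced axis, with the mean and SD of each group in black. For each gene the ATRA arrays sit above the DMSO arrays, by 6.56-fold for DDIT4, 2.86-fold for PDCD4 and 1.59-fold for SESN2.

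Median intensity over all probe sets was 9.40 to 9.76 per array, and log2 values correlated at 0.990 to 0.992 within groups and 0.985 to 0.987 between them (across genes, which are not independent replicates). Labels do not say whether arrays of a group are separate cultures. The p-values therefore rest on differences among these samples, which may be technical. Of 8 measured plasma cell markers of 12 listed, 6 were bright (log2 9.26 to 11.0, among them CD38, SDC1, IRF4 and XBP1), while CD27 and POU2AF1 lay at 3.88 and 4.13. Of those markers 3 rose with ATRA, CD38, SDC1 and XBP1 (37.5% called, against 3.8% of all genes), and 0 fell. In 3 others, SLAMF7 (-0.31), IRF4 (-0.17) and POU2AF1 (-0.25), all ATRA arrays lay below the DMSO arrays without a call. In MZB1 (0.25) they all lay above, also without a call. Among all genes 24.7% had no overlap in either direction. The summed intensity of the 8 was 7154 to 7435 with DMSO and 9040 to 9368 with ATRA. Its part in the results on the 3 brakes was not tested. Among 29 measured markers of other cell types of 52 listed, 0 passed in limma (against 4 with an unadjusted p under 0.05), 0 were listed at 0, and 27 lay at or below a log2 level of 4.91, that of CD8A. That level is used below as a bound for dim genes. The summed intensity of those 27 was 333 to 359 with DMSO and 327 to 346 with ATRA, and that of all 29, with CD68 and KRT18, 1171 to 1265 and 996 to 1091.

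No close relative of the brakes passed the test. SESN1, a sestrin known as a p53 target, had intensities of 112, 126 and 137 with DMSO and 79.3, 104 and 88.7 with ATRA. All ATRA arrays lay below the DMSO arrays, the opposite side from SESN2. Its log2 difference of -0.47 (SE 0.13) did not pass limma's test (adjusted p = 0.112). It did pass in 2 of 12 alternative fits, without the dimmer 50% of genes (0.0466) and with eBayes with trend and robust (0.0285), and its adjusted p ranged up to 0.276 over the 12. SESN3, a sestrin gene under FOXO control, was at 58.5 ± 8.05 with DMSO and 62.2 ± 1.67 with ATRA (SD, n = 3; log2 difference 0.10, adjusted p = 0.734). DDIT4L, the paralog of DDIT4, was dim, at 12.4 ± 2.12 and 11.8 ± 3.87, so no change in it could be judged. The differences of SESN2 from SESN1 and from SESN3 were not tested, because SESN2 was chosen on this contrast.

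The list of genes of mTORC1 itself held 0 called genes, which in a list of 16 is close to the 3.8% called among all genes. Of 16 measured genes of a list of 25 (subunits, GTPases and their regulators), 0 passed in limma against 3 with an unadjusted p under 0.05 (18.8%, against 17.9% of all genes), with a list median of -0.08 against -0.01 over all genes. MTOR, the kinase, was at 255 ± 10.7 with DMSO and 254 ± 9.45 with ATRA (log2 difference -0.01, 95% interval -0.21 to 0.20, unadjusted for multiple genes). TSC1 and TSC2, through which DDIT4 acts, differed by -0.10 (95% interval -0.35 to 0.15) and -0.07 (-0.30 to 0.17). These intervals exclude a difference of the size seen for DDIT4 or PDCD4. RHEB, the GTPase they control, was at 52.1, 45.6 and 51.1 with DMSO and 40.4, 40.1 and 40.2 with ATRA, 2 groups that did not overlap, in a difference that did not pass (-0.30, SE 0.09, adjusted p = 0.142, and 0.0437 to 0.316 over the alternatives). DEPTOR, an inhibitor bound to the kinase that many myelomas express highly, was at 406 ± 19.2 and 323 ± 37.0 (-0.34, SE 0.11, adjusted p = 0.174, and 0.0229 to 0.366 over the alternatives). AKT1S1, the inhibitory subunit PRAS40, was at 167 ± 5.26 and 163 ± 1.66, a difference of -0.03 that became 0.01 with quantile normalization. RRAGD, a Rag GTPase that carries amino acid signals to mTORC1, had the highest difference of the list, 0.38 (SE 0.11, adjusted p = 0.134, and 0.0274 to 0.294 over the alternatives). RPTOR was not analysed here.

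Sensors above mTORC1 gave the same count, and in lists this short it is again close to the 3.8% called among all genes. Of 18 measured genes of 30 listed for amino acid and energy sensing, to which SESN2 belongs by function but in which it is not counted, 0 passed in limma against 3 with an unadjusted p under 0.05 (16.7%, median -0.08). KICS2, a subunit of the KICSTOR complex that anchors the amino acid brake to the lysosome, was highest at 0.50 (SE 0.13, adjusted p = 0.0893, and 0.0356 to 0.203 over the alternatives), and SESN1 was lowest. In growth factor signalling 0 of 13 measured genes of 30 passed, with 4 at an unadjusted p under 0.05 (30.8%, median -0.09). Among all genes 17.9% had an unadjusted p under 0.05. The 2 largest differences were those of PIK3IP1 and PHLPP2, while PHLPP1, the relative of PHLPP2, differed by 0.02 (adjusted p = 0.957). PHLPP2, a phosphatase that removes an activating phosphate from AKT, was at 200, 276 and 270 with DMSO and 356, 420 and 410 with ATRA. These groups did not overlap, and the log2 difference of 0.68 (SE 0.15), the size of that of SESN2, lay just outside the threshold (adjusted p = 0.0548). It passed in 3 of 12 alternative fits, with quantile normalization (0.0448), without the dimmer 50% of genes (0.0239) and with eBayes with trend and robust (0.00223), and its highest adjusted p was 0.15. PIK3IP1, a membrane inhibitor of PI3 kinase, was at 20.8 ± 3.69 and 34.0 ± 6.05 (0.70, SE 0.17, adjusted p = 0.0749, and 0.0294 to 0.207 over the alternatives), at a level where markers of other cell types lie.

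**Figure D2:**
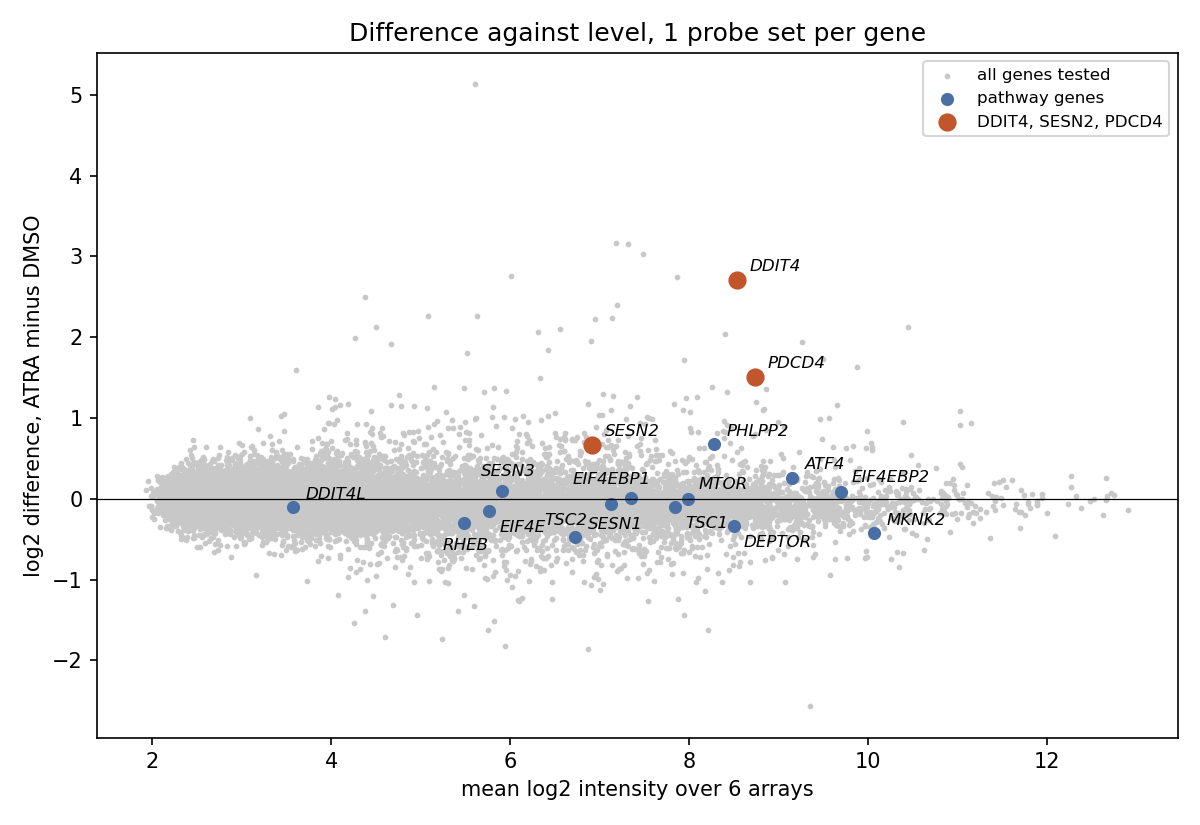
Log2 difference, ATRA minus DMSO, against mean log2 intensity over 6 arrays, for all 14884 genes in grey, 14 genes of the pathway in blue and the 3 brakes in orange. DDIT4 (2.71) and PDCD4 (1.51) stand well above the cloud and SESN2 (0.67) at its upper edge, beside PHLPP2 (0.68), while MTOR, TSC1 and TSC2 lie near 0.

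The initiation machinery on which PDCD4 acts held 1 called gene. Of 17 measured genes of 33 listed for cap-dependent initiation and the S6 kinase branch, 1 fell, 0 rose and 16 did not pass. That is 5.88% called, against 3.8% of all genes, with a median of -0.07. An unadjusted p under 0.05 was reached by 5 of the 17 (29.4%, against 17.9% of all genes). In 6 all ATRA arrays lay below the DMSO arrays (2203 of all 14884 genes did), and in 2 above. The count passing was 3 without the dimmer 50% of genes and 4 with eBayes with trend and robust. Of all genes, 1143 of 7442 and 1327 of 14884 passed in these 2 fits. The gene that fell was MKNK2, a kinase that phosphorylates the cap-binding protein eIF4E. Its intensity was 1207, 1252 and 1256 with DMSO and 929, 954 and 892 with ATRA, 1.34-fold lower with no overlap (log2 difference -0.42, SE 0.08, limma adjusted p = 0.0426). That call was lost whichever array was left out (adjusted p 0.0924 to 0.136), with quantile normalization and with the replicate number as a block (0.129). EIF4E, the cap-binding protein, differed by -0.16 (95% interval -0.43 to 0.12). EIF4EBP1 and EIF4EBP2, which hold eIF4E inactive until mTORC1 phosphorylates them, differed by 0.01 (95% interval -0.23 to 0.24) and 0.08 (-0.12 to 0.28). EIF4A1 and EIF4A2, the helicases that PDCD4 binds, EIF4G1 and RPS6KB1 were not analysed here.

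Known regulators of PDCD4 gave no called gene, which in a list of 7 is close to the 3.8% called among all genes. Of 7 measured of 11 listed, 0 passed in limma and 0 reached an unadjusted p under 0.05. Among all genes 17.9% reached it, and 7 genes are too few to tell 0 from that share. The differences ran from -0.13 for PRMT5, an arginine methyltransferase, to 0.18 for SKP1, an adaptor of the cullin ligase, which was dim. BTRC and FBXW11, the beta-TrCP proteins that select PDCD4 for destruction, were at 112 ± 22.0 and 76.5 ± 6.50 with DMSO and at 104 ± 12.1 and 77.4 ± 4.89 with ATRA. Their differences were -0.09 (95% interval -0.49 to 0.30) and 0.02 (-0.23 to 0.26). MIR21, named because its mature form is a well-known inhibitor of PDCD4 mRNA, is shown here from RefSeq on GRCh38.p14 (chr17:59841273-59841294, plus strand) with its seed, bases 2 to 8, in capitals.
hsa-miR-21-5p: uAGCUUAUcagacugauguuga
The probe set of the MIR21 gene was at 11.2 ± 3.07 with DMSO and 11.1 ± 3.11 with ATRA, a dim level that says nothing of the mature microRNA.

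Pathways known to raise DDIT4 or SESN2 were then described 1 by 1. The kinases that slow translation through eIF2, and ATF4, the transcription factor whose translation this favours and which acts on both genes, form the first list. Of 9 measured genes of 21, with a median of 0.12, 0 passed in limma, in so short a list close to the 3.8% called among all genes. An unadjusted p under 0.05 was reached by 2 (22.2%, against 17.9% of all genes). These were ATF4 itself, at 521 ± 25.6 with DMSO and 625 ± 27.6 with ATRA (0.26, SE 0.09, adjusted p = 0.188, and 0.0110 to 0.396 over the alternatives), and EIF2AK1, the kinase of heme shortage and mitochondrial stress (0.25, SE 0.09, adjusted p = 0.214, and 0.00763 to 0.393 over the alternatives). Both sat apart from their DMSO values, upward. With these, 3 of the 9 genes did so (33.3%, against 9.86% of all genes), and 0 sat apart downward. Among ATF4 targets other than DDIT4 and SESN2, 1 of 21 measured genes of 36 rose, 0 fell and 20 did not pass (4.76% called), with a median of 0.08. An unadjusted p under 0.05 was reached by 9 of the 21 (42.9%, against 17.9% of all genes). In 9 all ATRA arrays lay above the DMSO arrays (42.9%, against 9.86%), and in 2 below (2203 of all 14884 genes did). The count passing was 5 without the dimmer 50% of genes and 5 with eBayes with trend and robust. More of all genes passed in these 2 fits as well, 1143 of 7442 and 1327 of 14884. The gene that rose was WARS1, the tryptophan tRNA synthetase, at 50.4 ± 4.20 and 71.5 ± 5.04 (0.51, SE 0.11, adjusted p = 0.0490). Its call was lost whichever array was left out (0.0769 to 0.147) and with arrays set to a common median, and its dimmer probe set had a difference of -0.30. With both probe sets averaged the difference was 0.10 (adjusted p = 0.748).

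In the hypoxia list, 1 of 15 measured genes of 29 rose, 1 fell and 13 did not pass (13.3% called, against 3.8% of all genes, median -0.10). ANKRD37, an ankyrin-repeat gene induced by low oxygen, was 2.02-fold higher, at 79.2 ± 7.59 from 39.2 ± 4.50 (1.02, SE 0.12, adjusted p = 0.00697). LDHA, lactate dehydrogenase A, fell by 0.55 on the log2 scale (adjusted p = 0.0402), a call that among the 6 fits with 1 array left out held without ATRA replicate 2 (0.0497) and was lost in the other 5 (0.104 to 0.130). Among glucocorticoid-inducible genes, 1 of 16 measured genes of 24 rose, 2 fell and 13 did not pass (18.8% called, median -0.07). CXCR4, the receptor that keeps plasma cells in the bone marrow, was 3.32-fold higher (398 ± 44.7 to 1316 ± 73.1, adjusted p = 0.000539). DUSP1, a phosphatase of MAP kinases and a standard glucocorticoid response gene, was 1.71-fold lower (498 ± 10.4 to 290 ± 10.7, adjusted p = 0.00475). FKBP5, another such gene, fell from a dim level, by 0.43 (adjusted p = 0.0472), and lost the call whichever array was left out (0.0854 to 0.151). The genes that moved in this list did not move 1 way.

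Of 12 measured p53 targets of 25, among which DDIT4 and SESN2 are often counted, 0 passed in limma against 4 with an unadjusted p under 0.05 (33.3%, against 17.9% of all genes), with a median of -0.11. The count passing was 4 without the dimmer 50% of genes and 4 with eBayes with trend and robust, fits in which 1143 of 7442 and 1327 of 14884 genes passed. The largest differences were downward, -0.64 for PLK3, a stress kinase (adjusted p = 0.0574, and 0.0216 to 0.163 over the alternatives), and -0.58 for BAX, the pore-forming death protein (adjusted p = 0.0600, and 0.00944 to 0.172). Among FOXO targets, which rise when AKT is less active, 2 of 17 measured genes of 25 rose, 0 fell and 15 did not pass. That is 11.8% called, against 3.8% of all genes, with a median of 0.09. An unadjusted p under 0.05 was reached by 6 of the 17 (35.3%). In 5 all ATRA arrays lay above the DMSO arrays (29.4%, against 9.86% of all genes), and in 1 below. FBXO32, a subunit of a ubiquitin ligase of muscle wasting, was 8.17-fold higher, with intensities of 48.8, 65.8 and 77.6 with DMSO and 484, 567 and 496 with ATRA (adjusted p = 0.000290). KLF2, a transcription factor of quiescent lymphocytes, was 1.39-fold higher (adjusted p = 0.0381), a call lost whichever array was left out (0.0719 to 0.126) and with arrays set to a common median. SESN1 and PIK3IP1, already described, stand in this list as well and did not pass.

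Genes that mTORC1 is known to hold down or raise were described as 2 lists. Of 33 measured autophagy and lysosome genes of 44, 1 rose, 0 fell and 32 did not pass. That is 3.03% called, close to the 3.8% of all genes, with a median of 0.02. ATG2A, which moves lipid into the growing autophagosome, rose 1.85-fold, with intensities of 96.7, 97.1 and 82.0 with DMSO and 169, 170 and 169 with ATRA (adjusted p = 0.00542). ULK1, the kinase that mTORC1 blocks to prevent autophagy, was at 66.3 ± 6.39 and 66.0 ± 5.25 (log2 difference -0.0042, 95% interval -0.27 to 0.26). Of 27 measured metabolic genes of 38 that rise with mTORC1 activity, 5 rose, 1 fell and 21 did not pass (22.2% called), while the median was -0.04. The 5 that rose were SREBF1, the transcription factor of fatty acid genes (8.89-fold, adjusted p = 9.98e-06), SCD, a desaturase (4.36-fold), ACACA, which makes malonyl-CoA (2.14-fold), FASN, the fatty acid synthase (1.79-fold), and INSIG1, a regulator of SREBP processing (1.54-fold). Other lipid genes of the list, named after their values were seen, did not pass, with differences of -0.10 for ACLY, -0.10 for HMGCS1, -0.27 for SQLE and -0.24 for LPIN1. Not every other lipid gene lay on that side. SREBF2 did not pass at 0.22, with all ATRA arrays above the DMSO arrays, and DHCR7, described below, was called at 0.63. The highest adjusted p of the 5 was 0.0130, that of INSIG1, which was no longer called when DMSO replicate 2 (0.0550), ATRA replicate 3 (0.0546) or DMSO replicate 3 (0.0579) was left out. The gene that fell was LDHA, of glycolysis. This list had been seen to contain changed lipid genes in earlier work on these arrays, so its count is no independent evidence. Over all 13 lists, 11 of 205 measured genes rose and 4 fell (7.32% called, against 3.8% of all genes, median -0.03 against -0.01). The metabolic list held 6 of these 15 genes. The list genes were brighter, with a median log2 level of 6.75 against 4.19 over all genes. Without the dimmer 50% of genes, 31 list genes passed, beside 1143 of all 7442 genes in that fit. The part of level in the 7.32% was not tested, and nothing is read from that share.

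**Figure D3:**
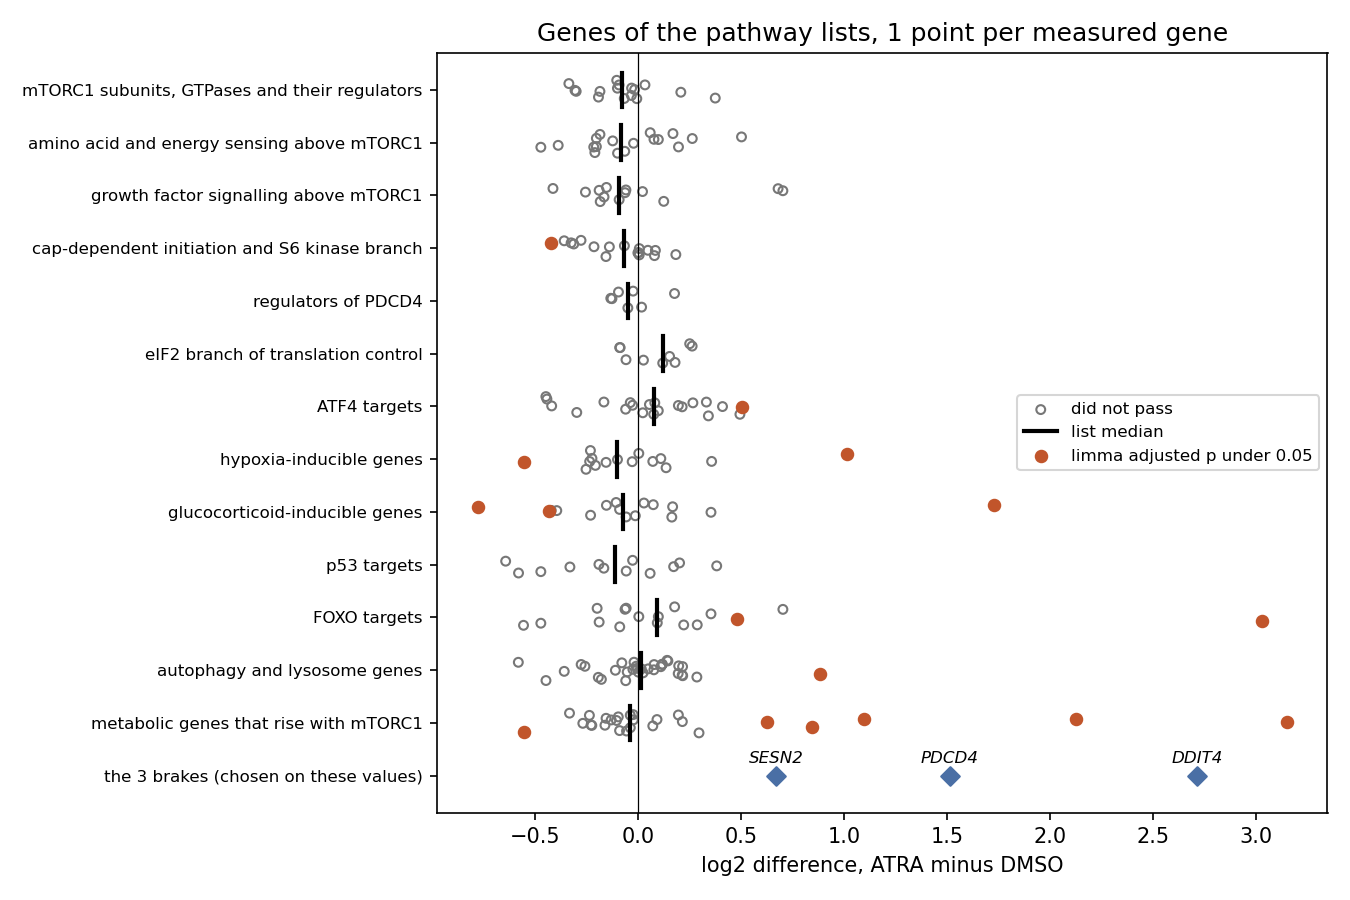
Log2 difference, ATRA minus DMSO, of each measured gene of the 13 pathway lists (filled where limma's adjusted p was under 0.05, black bar at the list median), with the 3 brakes in the lowest line. No gene of the 3 lists in and above mTORC1 is filled, and the metabolic list holds 5 filled genes to the right and 1 to the left.

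Genes with the pattern most like each brake were ranked by the root mean square distance over the 6 arrays between log2 values, each gene set relative to its own DMSO mean, among 5552 protein-coding genes with a mean log2 level of at least 5. Since the distance uses the contrast that chose the brakes, the results are a description. Nearest to DDIT4 were MFGE8, a secreted protein that binds phosphatidylserine (distance 0.089), HAPLN3, a link protein of hyaluronan (0.092), CTSZ, a lysosomal cathepsin (0.24), and FBXO32 (0.25). MFGE8 went from 90.4 ± 7.72 to 602 ± 4.33 and HAPLN3 from 24.8 ± 3.34 to 168 ± 14.2, log2 differences of 2.74 and 2.76 beside the 2.71 of DDIT4. MFGE8 and HAPLN3 were the 2 candidates within a distance of 0.15 of DDIT4. The log2 level of HAPLN3 with DMSO, 4.63, lay under the minimum of 5 and under the bound for dim genes, so it entered the ranking through its ATRA arrays and the size of its difference is uncertain.

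Nearest to PDCD4 were GALM, a mutarotase of galactose breakdown (0.12), SULF2, which removes sulfates from heparan sulfate (0.14), IER3, an immediate early gene (0.16), and TMEM135, a membrane protein of peroxisomes and mitochondria (0.16), with differences of 1.36, 1.63, 1.33 and 1.30. GALM and SULF2 were the 2 candidates within 0.15 of PDCD4. IER3 has 11 probe sets, whose differences run from 0.38 to 1.33, and the second probe set of SULF2, a dim one, gave 0.76. SESN2 had more company, with 61 genes within 0.15. The nearest were DHCR7, an enzyme of cholesterol synthesis (0.050), CALCOCO1, a coiled-coil protein that serves as a receptor for autophagy of the endoplasmic reticulum (0.057), KLHL6, a ligase adaptor of B cells (0.074), and INSIG1 (0.075), with differences between 0.63 and 0.72. The brakes themselves were left out of each ranking.

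**Figure D4:**
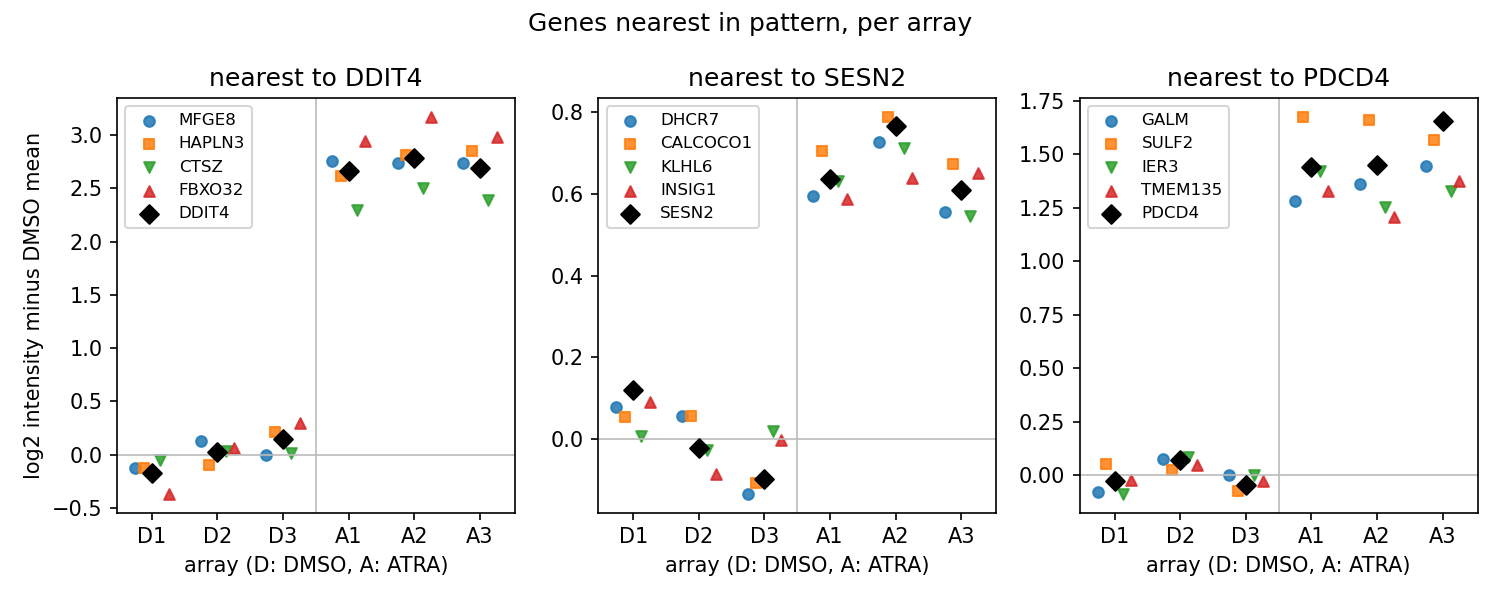
Log2 intensity relative to the gene's own DMSO mean on each array (D1 to D3, DMSO; A1 to A3, ATRA) for DDIT4, SESN2 and PDCD4 (black diamonds) and the 4 genes nearest to each in pattern. The ATRA arrays of MFGE8 and HAPLN3 fall beside those of DDIT4, and the vertical scale differs between panels.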

How the data were processed

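Per the labels, total RNA of 6 MM.1S samples was labelled with biotin and hybridised to whole-transcript arrays. The deposited values are intensities on a linear scale for 53617 probe sets, and the authors' processing notes name RMA and limma without version or role. Background correction and normalization were not redone, and folds of dim genes may be compressed by them. Which genome build was used is not given in the sources used here. Precision is limited by the number of arrays.

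Values were turned to log2 with no pseudocount. The platform annotation gives 16098 probe sets exactly 1 symbol, 0 several, and leaves 37519 unnamed here. All 16098 matched GRCh38.p14 RefSeq by Entrez ID. Each of 14884 symbols was represented by its probe set with the highest mean. ATRA was compared with DMSO by limma 3.58.1 in R 4.3.3 (lmFit, eBayes, no block, two-sided). Adjustment for the 14884 genes was by Benjamini-Hochberg, with 0.05 as the threshold. The steps were tested on simulated data. SDs are over arrays, and folds are ratios of geometric means. Intervals of 95% use limma's moderated SE, unadjusted.

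Members and lists were chosen with earlier results of these data known. Named genes are the 3 brakes, the 16 measured of a set of 22, up to 4 called genes of each list by size (the 2 largest differences where none was called) and the 4 genes nearest in pattern to each brake. MIR21, CD8A and the marker genes were named after their values were seen. Alternatives were quantile normalization, a common median, a filter that drops the dimmer 50% of genes, eBayes with trend and robust, averaged probe sets, a block by replicate number, and each array left out in turn. Sequences are RefSeq's, and the promoters of all 3 brakes were found.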

Additional observations from a re-analysis of the deposited data

How the results depend on the processing

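The log2 differences of DDIT4, SESN2 and PDCD4 kept their direction under all 12 alternatives, but most of these could not have changed it. The block, the filter, trend and robust, and averaged probe sets leave the difference of a gene with 1 probe set as it is. Leaving out 1 array cannot reverse groups that do not overlap, and the differences were then 2.63 to 2.79, 0.62 to 0.73 and 1.44 to 1.55. With quantile normalization they were 2.75, 0.69 and 1.56, and with a common median 2.69, 0.65 and 1.49. These 2 normalizations moved them by less than the spread between replicates. Counts moved more. Of all genes, 565 passed, 207 to 317 with 1 array left out, 1143 without the dimmer 50% of genes and 1327 with eBayes with trend and robust, and 570, 572 and 565 with quantile normalization, a common median and the mean of probe sets. Of the pathway genes 15 passed, 9 to 11 with 1 array left out, 31 without the dimmer 50% of genes and 38 with eBayes with trend and robust. The fits with 1 array left out have fewer samples, and the cause of the falls and of the rises was not tested. With trend and robust, 2 genes passed in each of the 3 lists in and above mTORC1. With the replicate number as a block, which keeps every array, 200 of all genes passed and 9 pathway genes. The calls of MKNK2, WARS1, LDHA, FKBP5, KLF2, INSIG1, KLHL6 and DHCR7 were lost in that fit (limma adjusted p 0.0644 to 0.130). That of DHCR7 was also lost whichever array was left out (0.0580 to 0.0758). Same-numbered arrays deviated from their group means with correlations of 0.017, 0.0087 and 0.016 (each array correlated best with its own number, a hint from the data and not the design), so the numbers were not taken to pair the samples. Of all genes, 8826 had a mean level at or below that of CD8A, and among the 205 pathway genes 39 did, so that changes in these were hard to see.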
